A study of Homo sapiens with 8 samples.

Results

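The genes described here are 10 components of the circadian clock: the period genes PER1, PER2 and PER3, the cryptochrome genes CRY1 and CRY2, the nuclear receptor genes NR1D1 and NR1D2 (REV-ERB alpha and beta), the basic helix-loop-helix genes BHLHE40 and BHLHE41, and CLOCK. They were chosen by symbol, with earlier results of these data known, and all 10 were found among the 43682 gene symbols counted. Of these genes 9 encode repressors of the clock, and CLOCK encodes an activator. RNA was sequenced from UM-RC-2, an established line of clear cell renal cell carcinoma that carries the VHL missense mutation p.Arg82Pro per the labels. Every group carried a lentiviral construct and was selected in blasticidin at 10 µg/ml. Cells labelled VHL expressed VHL, the tumour suppressor that marks the alpha subunits of hypoxia-inducible factors (HIF) for degradation, and cells labelled VEC carried the comparator construct. Each group has 2 libraries, 1 per replicate number. The labels give the molecule as total RNA for both replicate 1 libraries and as polyA RNA for both replicate 2 libraries. They do not say whether replicates were separate cultures. P-values of the main fit, which takes the replicate number as a block, set the VHL against VEC difference against a variance within replicate numbers. That variance is shared across genes, so the SE of a gene says little about how well its own pairs agree. It leaves out the spread between replicate numbers.

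The clock is a loop in which CLOCK pairs with BMAL1 (gene symbol ARNTL), binds E-box sequences and activates the PER, CRY, NR1D and BHLHE40/BHLHE41 genes. PER and CRY proteins then inhibit the CLOCK pair, BHLHE40 and BHLHE41 proteins compete for the E-box, and REV-ERB receptors repress ARNTL at elements that ROR receptors activate. CLOCK and BMAL1 belong to the same bHLH-PAS protein family as the HIF subunits, and BHLHE40 is known as a gene induced by HIF in hypoxia. Harvest times are not given in the sources used here, so a change in level and a change in clock phase cannot be told apart. In bulk RNA, fewer expressing cells and less RNA per cell cannot be told apart either.

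The start regions of the members were searched for E-boxes (CACGTG), for the core of the HIF response element (ACGTG or GCGTG), for D-boxes (TTATGTAA or TTACGTAA), which bind the PAR bZIP factors and NFIL3, and for cores of the ROR and REV-ERB element (TAGGTCA or TGGGTCA). Both strands were read from 250 bases before to 50 bases after each start annotated by RefSeq on GRCh38.p14, with 14 starts for the 10 genes. Every E-box also holds a HIF core on each strand. The stretches upstream of BHLHE40, BHLHE41 and PER1, the single-start members with an E-box, are shown 5′ to 3′ with every match in capitals. They lie at chr3:4979187-4979436 (plus strand), chr12:26125038-26125287 (minus strand) and chr17:8152405-8152654 (minus strand).
BHLHE40: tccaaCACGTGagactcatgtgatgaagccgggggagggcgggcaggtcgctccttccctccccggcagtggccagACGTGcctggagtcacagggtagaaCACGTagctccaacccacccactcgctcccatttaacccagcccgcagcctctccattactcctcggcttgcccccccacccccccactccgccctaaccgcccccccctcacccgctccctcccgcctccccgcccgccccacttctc
BHLHE41: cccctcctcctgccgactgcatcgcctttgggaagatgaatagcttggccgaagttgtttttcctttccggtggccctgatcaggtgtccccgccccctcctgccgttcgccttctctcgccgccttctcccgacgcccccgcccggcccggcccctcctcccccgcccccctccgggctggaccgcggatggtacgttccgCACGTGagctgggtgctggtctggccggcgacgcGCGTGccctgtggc
PER1: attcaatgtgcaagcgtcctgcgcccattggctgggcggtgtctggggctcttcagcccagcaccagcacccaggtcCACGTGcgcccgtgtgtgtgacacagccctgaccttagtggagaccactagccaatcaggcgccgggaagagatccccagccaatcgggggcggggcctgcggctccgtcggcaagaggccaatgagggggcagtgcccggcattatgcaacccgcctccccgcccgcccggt

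BHLHE40 holds 1 E-box and 2 further HIF cores outside it, at positions -174 and -149 from its start. BHLHE41 and PER1 each hold 1 E-box and 1 further HIF core, at position -14 in BHLHE41 and 42 in PER1. An E-box is present in 7.26% of 35116 human start regions of the same length, a HIF core in 48.4%, a D-box in 1.01% and a ROR core in 5.69%. The second annotated start of NR1D2 is preceded by 2 E-boxes and a D-box, shown in windows of 30 bases at chr3:23945954-23945983, chr3:23946004-23946033 and chr3:23945916-23945945 (plus strand). The D-boxes of PER2 (chr2:238288595-238288624, minus strand) and of the first start of PER3 (chr1:7784103-7784132, plus strand) are shown in the same way.
NR1D2 first E-box: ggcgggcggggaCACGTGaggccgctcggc
NR1D2 second E-box: gggccgcagggaCACGTGggggcgggggcg
NR1D2 D-box: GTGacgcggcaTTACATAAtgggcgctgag
PER2 D-box: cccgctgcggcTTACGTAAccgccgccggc
PER3 D-box: gagcccgcgcgTTATGTAAcgcgccccggg

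The capitals at the left end of the NR1D2 D-box window are the end of a HIF core, and this D-box reads TTATGTAA on the minus strand. A ROR core was present at the second annotated starts of CRY2 (TAGGTCA, position -65), CLOCK (TGGGTCA, -217) and NR1D2 (TGGGTCA, -133), beside 5.69% of all start regions. Of the 14 start regions, 12 held at least 1 match. Each of these 12 held a HIF core, which alone is present in 48.4% of all human start regions of that length. The regions of the first CLOCK start and the first NR1D2 start held none of these letters. These matches describe letters in a window and do not show binding.

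**Figure D1:**
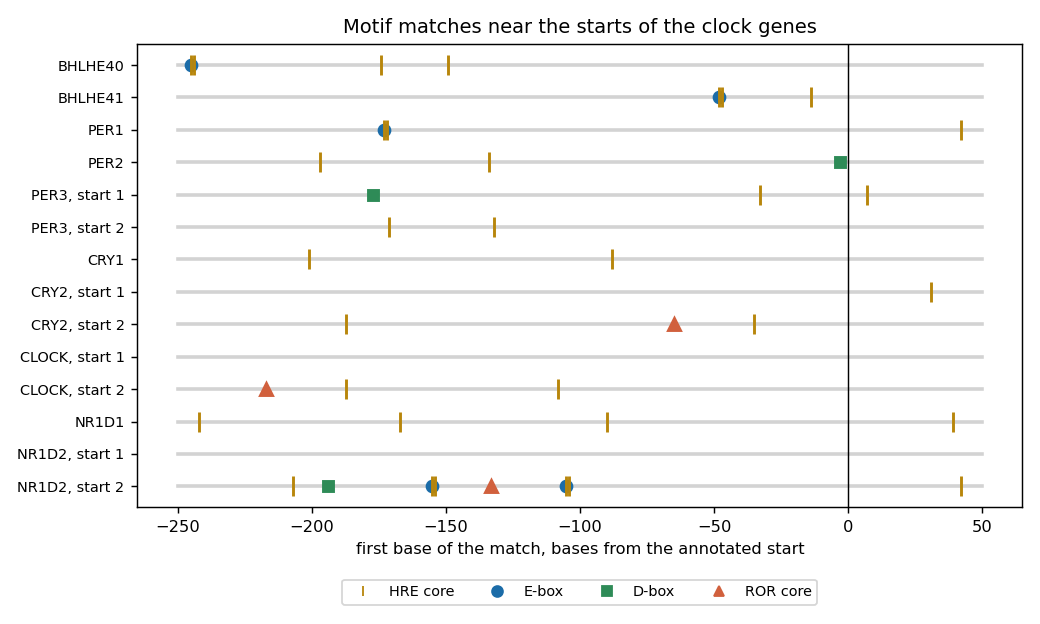
Matches of 4 motifs near the 14 annotated starts of the clock genes, with the distance of the first base of each match from the start in bases on the horizontal axis. E-boxes (circles) are present in BHLHE40, BHLHE41, PER1 and, as a pair, at the second start of NR1D2, each overlain by HIF cores (bars).

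The libraries held 21306867 (VEC) and 16230291 (VHL) counts in replicate 1 and 50027348 and 46609709 in replicate 2. The replicate numbers differ far more than the groups: across 21673 genes r of log2(CPM + 1), with CPM as the count scaled to library size, was 0.991 and 0.978 within replicate numbers, but 0.502 between the VEC libraries. The pseudogene share was small in replicate 1, reaching 2.09% at most. In replicate 2 this share was larger and uneven between the groups: 31.28% for VEC against 24.96% for VHL. Protein-coding genes made up 65.66% of that VEC library and 71.92% of its VHL partner. The part of this unevenness in the replicate 2 pair changes, those of CLOCK and NR1D2 included, was not tested. Because the replicate numbers differed more than the groups, VHL was compared with VEC within replicate numbers, by a fit with the replicate number as a block. VHL itself was higher in the VHL library of both pairs (log2 1.98 and 0.77), and CA9, a HIF-induced carbonic anhydrase gene, was lower in both (-5.38 and -5.41). Of 8 renal epithelial markers 7 were detected in every library, PAX8 at 40.8 to 75.9 CPM, while KRT19 had 0 counts. Endothelial markers (4 genes) had 0 counts throughout, and fibroblast markers summed to at most 0.490 CPM. Leukocyte markers summed to at most 0.214 CPM in replicate 1 and to 45.4 (VEC) and 45.6 (VHL) CPM in replicate 2, where LYZ gave 43.6 and 43.9 CPM. CD3E was at 0 in every library and PTPRC at no more than 1.58 CPM.

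None of the 10 clock genes passed the test of VHL against VEC. With edgeR's quasi-likelihood test in the blocked fit, 0 of 10 had a Benjamini-Hochberg adjusted p under 0.05, beside 3.1% of the 24417 genes tested (756 genes), of which 2.35% were lower and 0.749% higher in VHL. BHLHE40 was the 1 member with an unadjusted p under 0.05 in that fit. Among protein-coding genes tested alone with edgeR the share called was 7.15%, and again 0 of the 10 passed, with BHLHE40 and CLOCK (unadjusted p = 0.0400, adjusted p = 0.239) at an unadjusted p under 0.05. DESeq2's Wald test with the block called 0 of the 7 members to which it gave an adjusted p, beside 8.59% of 14002 such genes. It gave none to PER1, CRY2 and NR1D1, and BHLHE40 was the 1 of the 10 with an unadjusted p under 0.05. The blocked log2 changes of the members ran from -0.51 to 0.38 with a median of -0.13, against a median of -0.03 over all genes tested. In both pairs 5 members were lower in VHL (BHLHE40, BHLHE41, CRY1, CRY2 and NR1D1), beside 35.9% of all genes. In both pairs 3 were higher (PER3, CLOCK and NR1D2), beside 22.8%. PER1 and PER2 had differences of opposite sign in the pairs. Both VHL libraries lay below both VEC libraries for 2 members, BHLHE40 and NR1D1, beside 3.39% of all genes. The reverse held for 0 members, beside 4.47%.

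**Figure D2:**
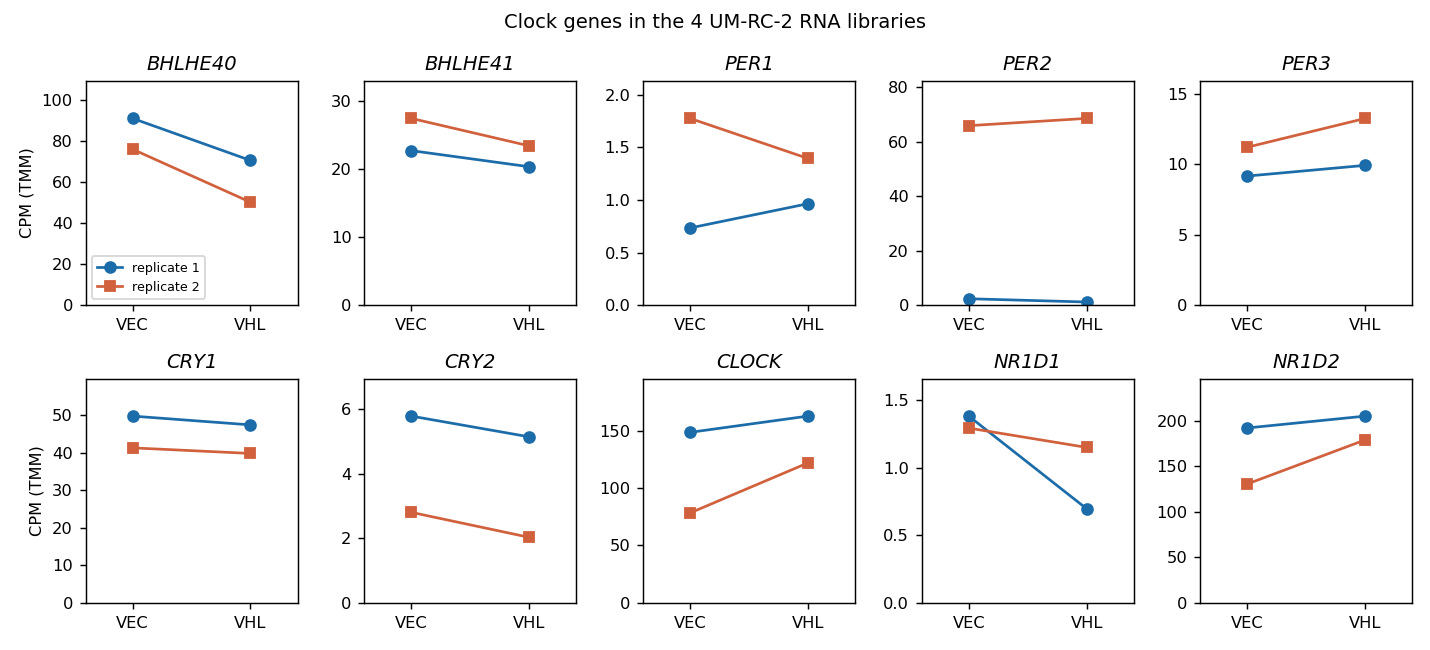
Level of each clock gene in CPM (vertical axes, each from 0 and on its own scale) in the 4 libraries, with the VEC and VHL libraries of a replicate number joined. The BHLHE40 lines slope down in both replicates, the CLOCK and NR1D2 lines slope up, none of these differences passed the test, and the PER2 lines lie far apart, at 2.38 and 1.18 CPM in replicate 1 and at 66.0 and 68.6 CPM in replicate 2.

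BHLHE40, the E-box repressor that joins hypoxia to the clock, stood at 90.9 CPM (VEC) against 70.4 (VHL) in replicate 1, from 2104 and 1314 counts. In replicate 2 it stood at 75.9 CPM (VEC) against 50.1 (VHL), from 3460 and 2047 counts. Both VHL libraries were thus lower than both VEC libraries. The log2 change, from CPM with a prior count of 2 as in every pair change given here, was -0.37 in the first pair and -0.60 in the second, and counting error alone gives 95% intervals of -0.47 to -0.27 and of -0.68 to -0.52. The blocked fit gave -0.48 ± 0.21 (SE, n = 2 per group, edgeR unadjusted p = 0.0233, adjusted p = 0.267), with a 95% interval of -0.90 to -0.07 that is not adjusted for the number of genes. The adjusted p ranged from 0.0511 to 0.421 over the 5 other blocked fits (edgeR and DESeq2), so BHLHE40 was called in none of them. Its size may be read against CA9, at -5.45 ± 0.29 in the same fit, and against NDRG1 and EGLN3, HIF-induced genes at -1.95 ± 0.25 and -1.95 ± 0.22.

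The antisense gene BHLHE40-AS1 overlaps BHLHE40 by 525 bases in the RefSeq annotation. Whether the counting used strand is not given in the sources used here, so reads of that stretch cannot be told apart. Overlaps given here are of whole gene spans on GRCh38.p14, introns included, and may differ from the sequence counted. PER3 overlaps LOC124903833 by 17982 bases, NR1D2 overlaps NKIRAS1 by 1277 and PER1 overlaps MIR6883 by 78. BHLHE40-AS1 had 4 (VEC) and 6 (VHL) counts in replicate 1 and 1555 and 1646 in replicate 2. Its CPM in replicate 2 was therefore 197-fold (VEC, 95% counting interval 76.9 to 725) and 125-fold (VHL, 57.4 to 342) that in replicate 1, while BHLHE40 in replicate 2 was at 0.83 (VEC) and 0.71 (VHL) of its replicate 1 level. Its blocked log2 change was 0.30 ± 0.32 (edgeR adjusted p = 0.860), opposite in sign to that of BHLHE40.

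BHLHE41, the paralogue of BHLHE40, had levels of 22.7 (VEC) and 20.3 (VHL) CPM in replicate 1, with 27.4 and 23.4 CPM in replicate 2. VHL was lower in each pair, but the groups overlapped. The blocked log2 change was -0.20 ± 0.24 (edgeR adjusted p = 0.891). BHLHE41 overlaps SSPN by 3047 bases, with the same limit on strand.

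The period genes encode the PAS proteins that carry CRY proteins to the CLOCK pair. PER1 had few counts, with 17 (VEC) and 18 (VHL) in replicate 1 and 81 and 57 in replicate 2. Its log2 changes of 0.37 and -0.33 had opposite signs, and the interval from counting error spanned 0 in both pairs. PER3 had 9.16 (VEC) and 9.92 (VHL) CPM in replicate 1, with 11.2 and 13.2 CPM in replicate 2. It was slightly higher in VHL in each pair, with overlapping groups and a blocked log2 change of 0.18 ± 0.29 (edgeR adjusted p = 0.940).

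PER2 depended on the replicate number more than any other member. It had 55 (VEC) and 22 (VHL) counts in replicate 1, and 3008 and 2803 in replicate 2. Its CPM in replicate 2 was 27.8-fold that of replicate 1 in VEC (95% counting interval 21.3 to 36.9) and 58.2-fold in VHL (38.4 to 93.0). On the log2 scale with a prior count of 2, a shift at least as large was present in 8.96% of 13916 protein-coding genes between the VEC libraries and in 6.97% between the VHL libraries. The log2 change was -0.97 in the first pair (counting interval -1.79 to -0.27) and 0.06 in the second (-0.02 to 0.13), so the lower level in VHL rests on the replicate 1 pair. The blocked fit gave -0.25 ± 0.26 (edgeR adjusted p = 0.852), and the fit without the block turned the sign, to 0.03 ± 2.43 (edgeR adjusted p = 0.999991). PER2 overlaps the noncoding gene LOC112268433 by 10878 bases, and the part of overlapping transcripts, of pseudogene counts and of the RNA preparation in its shift was not tested.

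**Figure D3:**
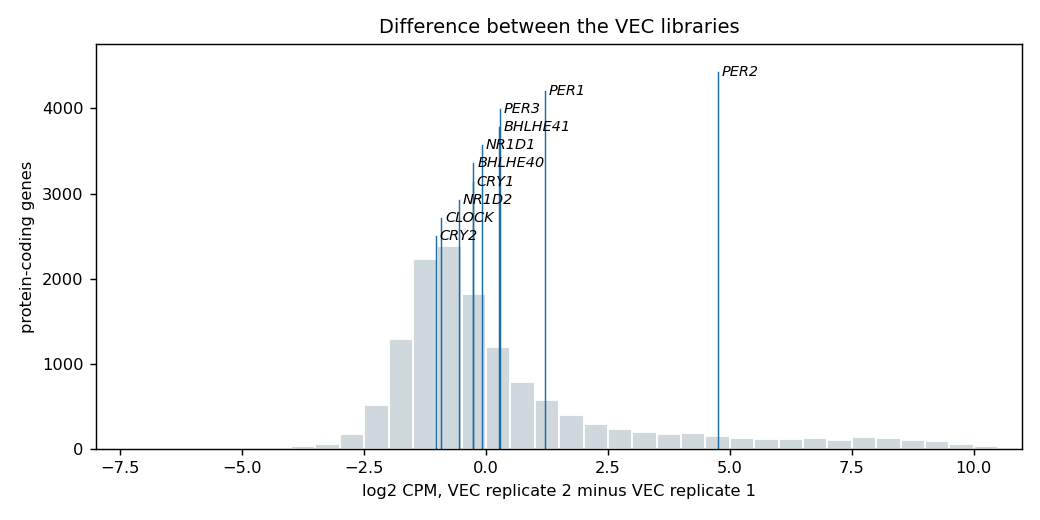
Number of protein-coding genes (vertical axis) by the difference in log2 CPM between the VEC libraries, replicate 2 minus replicate 1 (horizontal axis, bins of 0.5), with blue lines at the clock genes whose heights serve the labels alone. Most members lie in the body of the distribution, and PER2 lies in its right tail, at 4.76.

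The cryptochromes, the direct inhibitors of the CLOCK pair, were lower in VHL in both pairs, and neither was called. CRY1 had 49.7 (VEC) and 47.4 (VHL) CPM in replicate 1, with 41.3 and 39.8 CPM in replicate 2. Its pair changes of -0.07 and -0.05 were the closest to each other among the members. The blocked log2 change of CRY1 was -0.06 ± 0.21, with a 95% interval of -0.48 to 0.36 (edgeR adjusted p = 0.985). CRY2 was at 5.79 and 5.15 CPM in replicate 1 and at 2.81 and 2.03 CPM in replicate 2, with a blocked log2 change of -0.32 ± 0.38 (edgeR adjusted p = 0.892). Its pair changes were -0.17 (counting interval -0.56 to 0.22) and -0.45 (-0.88 to -0.06).

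CLOCK, the bHLH-PAS activator, had 148 (VEC) and 163 (VHL) CPM in replicate 1, with 78.3 and 122 CPM in replicate 2. VHL was higher in each pair, but both replicate 2 libraries were below both replicate 1 libraries, and the groups overlapped. The log2 change was 0.13 in the first pair and 0.64 in the second, where the counting intervals were 0.06 to 0.20 and 0.58 to 0.70. The blocked fit gave 0.38 ± 0.22 (edgeR adjusted p = 0.514), the highest change among the members. CLOCK overlaps the gene TMEM165 by 25495 bases in the annotation.

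The REV-ERB genes had differences of opposite sign, neither of which passed the test. NR1D1 had 1.38 (VEC) and 0.697 (VHL) CPM in replicate 1, from 32 and 13 counts. In replicate 2 it had 1.29 and 1.15 CPM, from 59 and 47 counts. Its groups did not overlap, yet the blocked log2 change of -0.51 ± 0.57 was smaller than its SE (edgeR adjusted p = 0.867). It overlaps THRA by 1075 bases, and THRA had a blocked log2 change of -0.13 ± 0.27. NR1D2 had 192 (VEC) and 205 (VHL) CPM in replicate 1, with 131 and 179 CPM in replicate 2. It was higher in VHL in each pair, by 0.09 and 0.45 on the log2 scale, with overlapping groups and a blocked change of 0.27 ± 0.23 (edgeR adjusted p = 0.762).

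**Figure D4:**
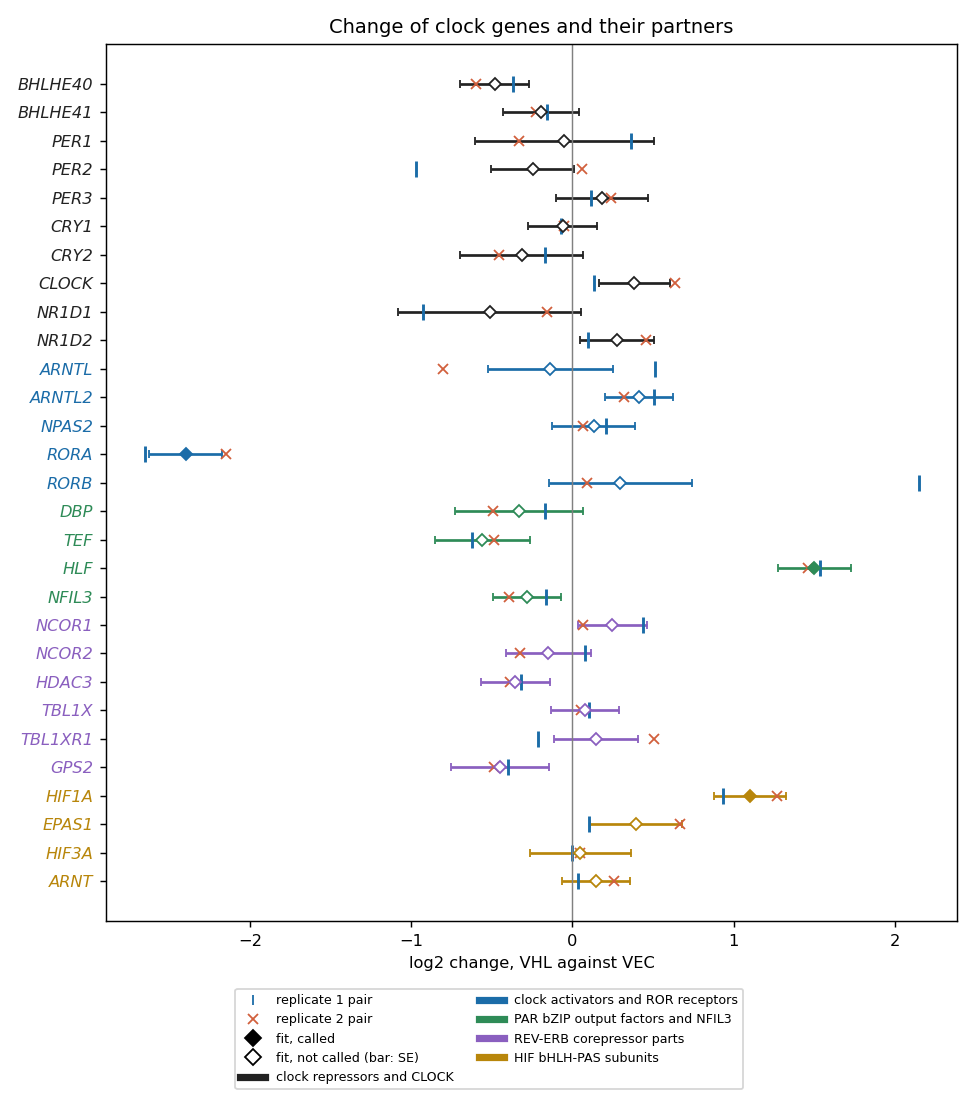
Log2 change of VHL against VEC (horizontal axis) for the clock genes and 4 related lists, as the blocked estimate with its SE (diamonds with bars, filled where called) and in each replicate pair (blue bars and red crosses). The members lie between -0.51 and 0.38 with open diamonds, and RORA, HLF and HIF1A are filled.

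Some genes that act beside the members passed the test. Calls in each list may be read against all 24417 genes tested with edgeR, of which 2.35% were called lower and 0.749% higher in VHL. Among 5 activators and ROR receptors, 1 fell, 0 rose and 4 were not called, with a median log2 change of 0.13. The gene that fell was RORA, the nuclear receptor that competes with REV-ERB for ROR elements. RORA had 92.9 (VEC) and 14.7 (VHL) CPM in replicate 1, from 2150 and 274 counts. In replicate 2 it had 62.4 and 14.03 CPM, from 2847 and 573 counts. Both VHL libraries were far below both VEC libraries, and the fall was 5.28-fold in the blocked fit, or -2.40 ± 0.23 on the log2 scale (edgeR adjusted p = 5.13e-23, rank 12 of all genes by p-value). Without the block the value was -2.43 ± 0.60 (edgeR adjusted p = 0.999991), and this fit called 0 of the 24417 genes, with 22 at an unadjusted p under 0.05, so the calls in the lists all rest on the block. ARNTL, the partner of CLOCK, had a log2 difference of 0.51 in the first pair and of -0.81 in the second, and was not called. ARNTL2 was higher in VHL in both pairs, by 0.51 and 0.32 (edgeR adjusted p = 0.402).

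Among the 4 PAR bZIP factors and NFIL3, which read D-boxes, 1 rose and 0 fell. The gene that rose was HLF, an activator from D-boxes, with 18.4 (VEC) and 53.4 (VHL) CPM in replicate 1 and with 15.4 and 42.4 CPM in replicate 2. The first pair rests on 425 and 997 counts and the second on 701 and 1732. The pairs were alike, at 1.54 and 1.46 on the log2 scale, and the blocked change was 1.502 ± 0.23, a 2.83-fold rise (edgeR adjusted p = 1.20e-08). The other 3, DBP, TEF and the repressor gene NFIL3, were lower in VHL in both pairs, with blocked log2 changes of -0.33, -0.56 and -0.28, and none was called.

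Of 21 kinases, ubiquitin ligase parts and cofactors of PER and CRY, 20 were counted and 18 tested, of which 1 rose and 0 fell. USP2, a ubiquitin protease gene whose product acts on clock proteins, had 21 (VEC) and 62 (VHL) counts in replicate 1 and 45 and 103 in replicate 2. Its blocked log2 change was 1.59 ± 0.49 (edgeR adjusted p = 0.0421). The call is marginal, since the adjusted p was 0.0540 with DESeq2 size factors and 0.0567 under the stricter filter (edgeR). Among the others, GSK3B, a kinase gene of the clock, had a blocked log2 difference of 0.46 ± 0.23 that was not called in edgeR (adjusted p = 0.372). It was called in the DESeq2 fit alone (adjusted p = 0.00909). PPP1CA went the other way, at -0.29 and -0.60 in the pairs. Its blocked log2 change was -0.45 ± 0.21, with an edgeR unadjusted p of 0.0369 against 0.0438 for GSK3B, and was not called (adjusted p = 0.344). The casein kinase gene CSNK1D, whose product phosphorylates PER proteins, had changes of opposite sign in the pairs (0.27 and -0.27). The median of the list was 0.25, against -0.03 over all genes tested.

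**Figure D5:**
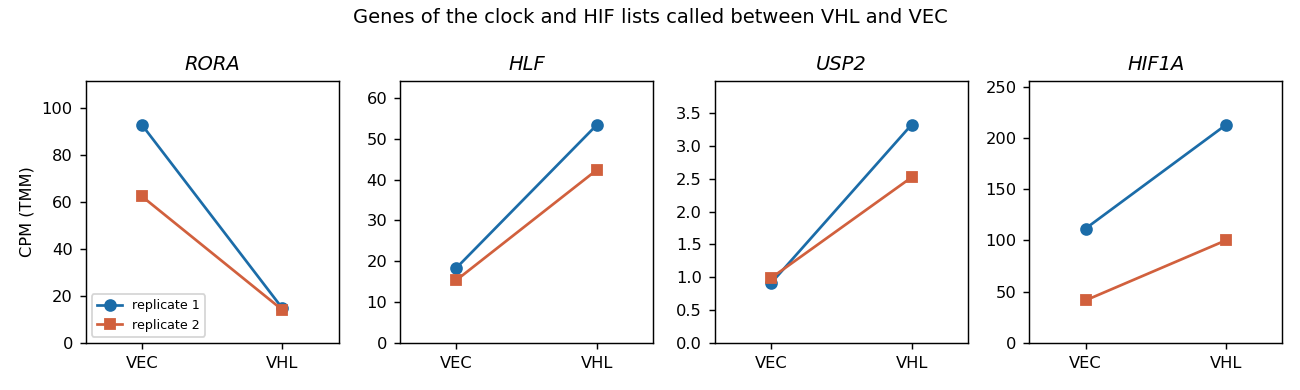
Level in CPM (vertical axes, each from 0) of the 4 genes of the clock and HIF lists that were called, with libraries of the same replicate number joined. RORA falls to 14.7 and 14.03 CPM in the VHL libraries, and HLF, USP2 and HIF1A rise in both replicates.

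Parts of the corepressor that REV-ERB recruits gave 0 calls among 6 tested genes in edgeR and 1 call in DESeq2. Over all genes, DESeq2 called 8.59% of the 14002 to which it gave an adjusted p. When all genes were fitted by edgeR with TMM and the block, none of the 6 had an unadjusted p under 0.05. The smallest p belonged to HDAC3, the deacetylase of that complex (-0.35 ± 0.22, edgeR adjusted p = 0.566), which DESeq2 called at -0.39 (adjusted p = 0.0268). HDAC3 had an unadjusted p of 0.0353 in edgeR with DESeq2 size factors and of 0.0289 with protein-coding genes alone, and was called in neither (adjusted p = 0.300 and 0.198). GPS2 followed at -0.45 ± 0.31. Other bHLH-Orange repressors, the protein family of BHLHE40, gave 0 calls among the 5 of 9 that could be tested in edgeR, with 0 at an unadjusted p under 0.05. DESeq2 gave an adjusted p to 2 of these 5 and called 0, with 0 of the 5 at an unadjusted p under 0.05. HES4 (-0.53 ± 0.33) and HES1 (0.63 ± 0.55) had the smallest p-values there. Of the HIF subunit genes, which share the bHLH-PAS family with CLOCK, 4 of 5 were tested, 1 rose and 0 fell. HIF1A had 112 (VEC) and 213 (VHL) CPM in replicate 1 and 41.5 and 100.2 CPM in replicate 2 (blocked log2 change 1.10 ± 0.22, edgeR adjusted p = 0.000103).

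The genes closest to BHLHE40 in pattern were NEK6, BBS4, SIK1, COBL and BLVRA. Likeness was the Euclidean distance over the log2 CPM of the 4 libraries, each gene centred on its own mean, among 18959 other genes whose mean count reached 50, and these 5 lay at distances of 0.0266 to 0.0886. NEK6, the closest, had 57.1 (VEC) and 43.2 (VHL) CPM in replicate 1, with 47.2 and 30.9 CPM in replicate 2. None of the 5 was called, with edgeR adjusted p-values of 0.226 to 0.482. These genes were chosen for likeness to BHLHE40, so their similar changes are no separate result.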

How the data were processed

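The data were the authors' deposited raw counts per gene symbol for 4 UM-RC-2 RNA libraries, counted from alignments to hg19 per the file headers. featureCounts and HOMER are named in the submitters' processing notes. Aligner, annotation, strand and treatment of multi-mapped reads are not given in the sources used here. The alignment names of replicate 2 contain the word genome per the file headers, and those of replicate 1 do not. H3K27ac tables were not used, because their regions have no positions.

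Counts were tested in R 4.3.3 with edgeR 4.0.16 (filterByExpr, TMM, glmQLFit and glmQLFTest, two-sided, replicate number as a block, 1 residual degree of freedom, called at an adjusted p under 0.05 over 24417 genes). Each SE was derived from the log2 change and its F statistic. CPM used TMM library sizes, pair changes a prior count of 2, and counting intervals an exact conditional binomial at 95%. DESeq2 1.42.0 was an alternative. The block follows the label of the molecule, which differs with the replicate number. Libraries of the same number departed together from their group means (r = 0.983 across 21673 genes). RefSeq classes (GRCh38.p14) matched 42760 symbols. The members, lists, motifs and tests were chosen with earlier results of these data known. Genes were named by a rule: all members, every called gene of a list or else its 2 smallest p-values, and the 5 nearest in pattern to BHLHE40 and to PER2. Other genes named were picked after their values were seen. A gene of the lists is not reported here.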

Additional observations from a re-analysis of the deposited data

How the results depend on the processing

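The clock genes had 0 calls under every alternative that gave them an adjusted p: 7 of the 10 in DESeq2 (none for PER1, CRY2 and NR1D1), 8 under the stricter filter (PER1 and NR1D1 not tested) and all 10 in the other edgeR fits with all 4 libraries. Over all genes the share called with the block was 4.09% with DESeq2 size factors, 1.95% with no filter and 4.02% under the stricter filter. It was 7.15% for protein-coding genes alone and 8.59% in DESeq2. The fit without the block called 0 of 24417 genes, so its 0 calls among the clock genes say nothing about them. The comparison rests on 2 libraries per group, and PER1 and NR1D1 on fewer than 100 counts in each library.

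With no replicate block, 0 genes were called (22 at an unadjusted p under 0.05), every list count was 0, and RORA, HLF, USP2, HIF1A, VHL, CA9, NDRG1 and EGLN3 lost their calls (adjusted p = 0.999991 each, edgeR) but kept their direction. PER2 turned to 0.031 in that fit. The block changed no call of a clock gene, since none had one. With the block, 351 genes rose and 642 fell when 13897 protein-coding genes were tested alone. In DESeq2 478 rose and 725 fell of the 14002 genes given an adjusted p, against 183 and 573 of 24417 in the main fit. In the list of kinases, ubiquitin ligase parts and cofactors, 2 genes rose in DESeq2 (PPP1CC and GSK3B) and 1 fell (DDB1), and 0 rose with DESeq2 size factors or the stricter filter. HDAC3 was the 1 corepressor gene called in DESeq2, which called 8.59% of the 14002 genes given an adjusted p. Of the other genes in these lists, DESeq2 gave no adjusted p for ARNTL, RORB, DBP, USP2, HES1, HES6 and HEY1, HES1 and HEY1 were not tested under the stricter filter, and the cause of these differences was not tested.

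Left out in pairs or singly with the block, libraries gave values without a test: PER2 ranged from -1.01 (without replicate 2) to 0.057 (without replicate 1), and leaving out either library of a pair equals leaving out the pair. Left out singly without the block, libraries gave groups with unlike replicate numbers, so these values mix the VHL difference with that between replicate numbers. PER2 kept its sign at -4.96 without VHL replicate 2. Some log2 changes turned sign. Without VEC replicate 1 these were CRY1 (0.079), CRY2 (0.35), HDAC3 (0.23), GPS2 (0.17) and HES4 (1.14). Without VHL replicate 1 they were PER1 (0.15), PER2 (1.01) and HES1 (-0.35). Without VEC replicate 2 they were PER1 (0.72), PER2 (3.92), CLOCK (-0.024) and HES1 (-0.011). Without VHL replicate 2 they were PER3 (-0.087), CRY1 (0.023), CRY2 (0.24), HDAC3 (0.071), GPS2 (0.0019) and HES4 (0.44).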

Other observations

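The 5 genes closest to PER2 in pattern over the 4 libraries were DBIL5P2, TUBA1A, ENTPD3-AS1, LINC02649 and LOC101928118, at distances of 0.118 to 0.173 among 18959 genes. Each was low in replicate 1 and high in replicate 2, which follows from their choice by likeness to PER2. TUBA1A, a tubulin gene, was at 22.4 (VEC) and 12.4 (VHL) CPM in replicate 1 and at 627 and 610 CPM in replicate 2.

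Some other genes of the lists were also far higher in replicate 2, and some were lower there. The CPM of HES6 in replicate 2 was 0.18 (VEC) and 0.12 (VHL) of that in replicate 1, and that of DDB1 0.25 and 0.27. Over protein-coding genes tested, the median log2 shift from VEC replicate 1 to VEC replicate 2 was -0.44. HES2 had 3 (VEC) and 2 (VHL) counts in replicate 1 and 2668 and 2324 in replicate 2. HIF3A had 0 in both replicate 1 libraries and 2468 and 2286 in replicate 2. RORB had 0 and 4 counts in replicate 1 and 441 and 420 in replicate 2. These genes were picked after their values were seen.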
